A study of Mus musculus with 6 samples.

Results

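The MHC class II presentation genes are the genes for the class II antigen-presenting molecules, their peptide-loading helpers and their transcriptional coactivator. They were chosen by name: H2-Aa, H2-Ab1, H2-Eb1, H2-DMa, H2-DMb1, H2-DMb2, H2-Oa, Cd74 and Ciita. Of these 9 genes, 8 had a probe set that the platform annotation names with 1 gene symbol, and each of the 8 had 1 such probe set. Cd74, the invariant chain, is listed there only on a probe set that also names a microRNA gene and was not analysed here. The 8 genes are part of 22180 named genes on the arrays. RNA came from lung fibroblasts of wild-type male C57BL/6 mice aged 8 weeks, enriched from digested lungs, grown in serum-containing medium and passaged at most 3 times. The cells were split over wells and given vehicle (3 wells, 1 array each) or purmorphamine (3 wells, 1 array each) for 24 h, at a dose the labels write as 5um, taken here to mean 5 µM. Purmorphamine is an agonist of Smoothened, the transducer of Hedgehog signals. How many mice or cell pools the wells represent is not given in the labels, so p-values rest on well-to-well spread alone and may reflect technical variation. Fibroblast markers and pan-leukocyte markers were both bright, with mean log2 levels of 10.08 to 10.18 and 11.94 to 11.97 in the vehicle arrays, where the upper quartile of an array was 8.20 to 8.21. The pan-leukocyte list held Ptprc, Lyz2, Cd68, Fcer1g, Laptm5, Coro1a, Tyrobp and Cd53, not all of which mark every leukocyte. Its brightest genes were Lyz2, Cd68 and Fcer1g, with vehicle means of 13.96, 13.21 and 13.08. No label states how pure the cultures were.

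Class II molecules are pairs of an alpha and a beta chain that carry peptides from endosomes to the cell surface for recognition by CD4+ T cells. H2-Aa and H2-Ab1 encode the chains of I-A, and H2-Eb1 encodes the beta chain of I-E, whose alpha chain gene H2-Ea is defective in C57BL/6 mice. In the endosome the H2-DM heterodimer, built from H2-DMa and H2-DMb1 or H2-DMb2, removes the invariant chain fragment from the groove and lets peptides exchange, and H2-O restrains H2-DM. Ciita, the class II transactivator, does not bind DNA itself but docks on factors that sit on the X and Y boxes of class II promoters. Macrophages, dendritic cells and B cells are known for class II expression, and fibroblasts for gaining it under interferon gamma.

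The promoter windows below show letters that some members share. No link between these letters and the changes of the transcripts, described next, was tested. Promoters from the RefSeq table (GRCm38.p6) matched 6 of the 8 genes by symbol, and H2-Ab1 and Ciita had no entry. Each line gives 100 bases, from 130 to 31 bases before the annotated start, 5′ to 3′ on the gene's strand. Capitals mark TGATTGG, the Y box without its first letter, to which the factor NF-Y binds.
H2-DMa (chr17:34122702-34122801, plus strand): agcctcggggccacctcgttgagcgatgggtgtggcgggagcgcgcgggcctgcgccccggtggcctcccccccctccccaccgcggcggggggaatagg
H2-DMb1 (chr17:34153061-34153160, plus strand): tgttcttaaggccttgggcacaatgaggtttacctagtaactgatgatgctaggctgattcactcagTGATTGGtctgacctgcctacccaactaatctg
H2-DMb2 (chr17:34145119-34145218, plus strand): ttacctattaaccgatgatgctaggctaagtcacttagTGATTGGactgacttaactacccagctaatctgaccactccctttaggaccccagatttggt
H2-Aa (chr17:34287854-34287953, minus strand): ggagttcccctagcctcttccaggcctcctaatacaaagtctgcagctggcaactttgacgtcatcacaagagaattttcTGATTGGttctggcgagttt
H2-Eb1 (chr17:34305737-34305836, plus strand): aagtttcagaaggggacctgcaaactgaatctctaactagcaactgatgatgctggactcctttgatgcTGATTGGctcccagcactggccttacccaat
H2-Oa (chr17:34092249-34092348, plus strand): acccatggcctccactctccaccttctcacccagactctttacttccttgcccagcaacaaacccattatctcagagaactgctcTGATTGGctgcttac

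The letters TGATTGG, searched on both strands in the whole 300 bases of each entry, were found in 5 of the 6 genes and in 7.82% of all 32851 promoter entries. They lay 45 bases before the start in H2-Oa, 50 in H2-Aa, 61 in H2-Eb1, 63 in H2-DMb1 and 92 in H2-DMb2. The full Y box, CTGATTGG, which contains them, was found in H2-Aa, H2-Eb1 and H2-Oa, 3 of the 6, and in 4.10% of all entries. The CCAAT core ATTGG, read on either strand and contained in both, was present in all 6 and in 37.4% of all entries. In H2-DMa it stood only in the entry of a second annotated start, 198 bases before that start. The window printed here has a 300-base entry of 73.0% G and C against a median of 52.7%. Which start of H2-DMa these cells used was not measured, and further starts may be missing from the entries searched. The lack of TGATTGG in the H2-DMa entries therefore does not show that the gene lacks a Y box. ACNGATG, the end of the X box, was found on either strand in 5 of the 6 genes and in 9.85% of all entries. In H2-DMb1, H2-DMb2 and H2-Eb1 it preceded TGATTGG by 28, 28 and 27 bases on the same strand, and 5 of all 32851 entries (0.0152%), those 3 included, held this arrangement with 20 to 30 bases between the starts of the 2 motifs. The interferon gamma activated site TTCNNNGAA was found in H2-DMb2 and in 8.30% of all entries. The X box was first searched in a longer form of 14 letters, which matched 1 of the 6 genes, H2-DMb1, and 0.237% of all entries. The shorter ACNGATG and the range of 20 to 30 bases were set after the matches were seen, so the counts that rest on them are no independent evidence. The other motifs were also chosen with the sequences known, and a match is a description of letters and not of a bound site.

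The comparison of purmorphamine with vehicle asks whether class II presentation transcripts changed in cultures given this Smoothened agonist. H2-DMa fell 1.70-fold and H2-DMb2 1.42-fold, and these H2-DM subunits were the 2 members past the test. The chain genes of the presenting molecules, H2-Aa, H2-Ab1 and H2-Eb1, did not pass it, with H2-Ab1 higher and H2-Eb1 lower on every purmorphamine array than on any vehicle array. H2-Oa and Ciita differed by -0.02 and -0.10 on the log2 scale and did not pass either. With limma and Benjamini-Hochberg adjustment over all genes at 0.05, 0 of the 8 members rose and 2 fell, where 14.3% of all genes tested passed in either direction, 7.18% upward and 7.16% downward. The groups did not overlap for 4 of the 8 members, 1 upward and 3 downward, against 34.2% of all genes. The median difference was -0.15 over the 8 members and -0.01 over all genes. The changes are those of whole cultures: in a bulk sample fewer cells of a type and less RNA per cell cannot be told apart.

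**Figure D1:**
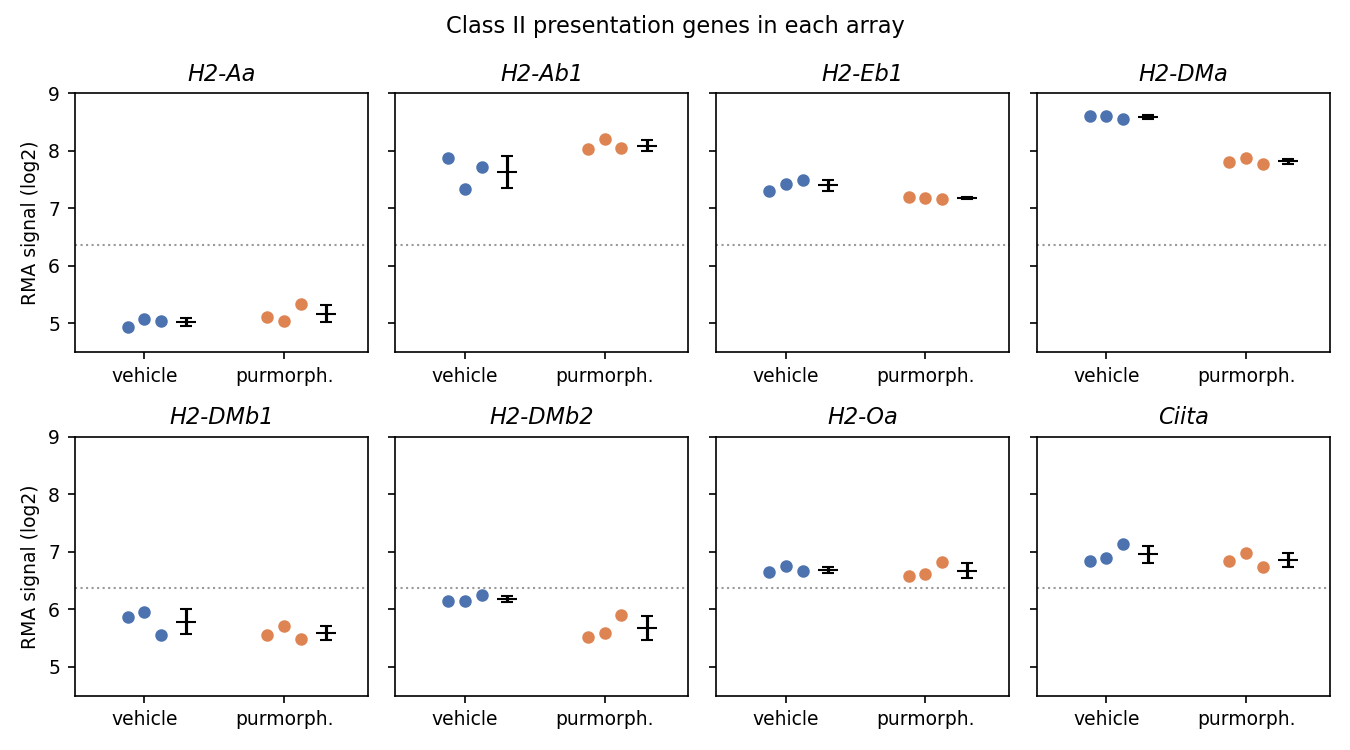
RMA signal (log2) of the 8 measured class II presentation genes in each array: points are the 3 vehicle (blue) and 3 purmorphamine (orange) arrays, the bar beside them is the mean with 1 SD, and the dotted line is the mean of the 6 array medians. H2-DMa lies at 8.55 to 8.61 under vehicle and 7.78 to 7.87 under purmorphamine, and the groups of H2-Aa, H2-DMb1, H2-Oa and Ciita overlap.

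H2-DMa encodes the alpha chain of H2-DM, the peptide editor. Its log2 signal was 8.60, 8.61 and 8.55 in vehicle replicates 1, 2 and 3 and 7.81, 7.87 and 7.78 in purmorphamine replicates 1, 2 and 3. All treated arrays lay below all vehicle arrays, and the gap between the groups was wider than the spread within either. H2-DMa fell by 0.77 (SE 0.05, 95% interval -0.89 to -0.65, limma adjusted p = 0.0003, n = 3 per group), from 8.59 ± 0.03 to 7.82 ± 0.05 (SD). It stayed past the threshold with any 1 of the 6 arrays left out (differences of -0.79 to -0.75).

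H2-DMb2 encodes an H2-DM beta chain. Its signal was 6.15, 6.15 and 6.25 in the vehicle arrays and 5.52, 5.59 and 5.91 in the purmorphamine arrays. The groups did not overlap, and purmorphamine replicate 3 lay nearest to the vehicle values. H2-DMb2 fell by 0.51 (SE 0.11, 95% interval -0.76 to -0.26, limma adjusted p = 0.0194). The call was lost on leaving out vehicle replicate 1, 2 or 3 (limma adjusted p = 0.0541, 0.0541 and 0.0662) or purmorphamine replicate 1 or 2 (0.0591 and 0.067), and kept on leaving out purmorphamine replicate 3 (0.00544). With a linear offset of 50 added, which shrinks changes of dim genes, the fall was 0.28. H2-DMb1, the other beta chain, read 5.87, 5.95 and 5.55 under vehicle and 5.55, 5.72 and 5.48 under purmorphamine. Its groups overlapped, and the difference of -0.21 (95% interval -0.48 to 0.07, limma adjusted p = 0.30) did not pass, with values of -0.33 to -0.13 when 1 array was left out. Both beta chain genes lay under the median of every array. They are close paralogs and neighbours whose transcripts the probes may not tell apart, so they are uncertain as separate signals.

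H2-Ab1 encodes the I-A beta chain. Its signal was 7.87, 7.33 and 7.72 in the vehicle arrays and 8.03, 8.20 and 8.05 in the purmorphamine arrays. Every treated value was higher, and the vehicle arrays were spread more widely (SD 0.28 against 0.09), with vehicle replicate 2 lowest. The difference of 0.45 (SE 0.14, 95% interval 0.14 to 0.77, limma adjusted p = 0.0694) did not pass. The fit put it past the threshold without vehicle replicate 1 (adjusted p = 0.0436), with the dimmest genes left out, a share of 0.333 (0.0294), with the offset of 50 (0.0284) and with eBayes set to trend and robust (0.00921), and the block on the replicate number gave 0.118. Without vehicle replicate 2 the difference was 0.30.

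H2-Aa, the I-A alpha chain gene, was dim: it read 4.94, 5.08 and 5.04 under vehicle and 5.12, 5.05 and 5.33 under purmorphamine, under the median of all 6 arrays and under the lower quartile of 3. The groups overlapped, and the difference was 0.15 (95% interval -0.06 to 0.35, limma adjusted p = 0.323), and 0.06 to 0.21 when 1 array was left out. At such levels RMA values compress changes, so this interval bounds the array value and not the transcript. H2-Eb1, the I-E beta chain gene, read 7.30, 7.43 and 7.49 under vehicle and 7.20, 7.18 and 7.16 under purmorphamine. The treated arrays lay close together and below all vehicle arrays. The difference of -0.22 (SE 0.07, 95% interval -0.38 to -0.07, limma adjusted p = 0.0633) did not pass, but was past the threshold without vehicle replicate 1 (0.0397), after quantile normalization of gene values (0.0485), with eBayes set to trend and robust (0.0496), with the offset of 50 (0.0302) and without the dimmest genes (0.0247). H2-Ea, which RefSeq lists as a transcribed pseudogene, read 5.52, 5.82 and 5.79 under vehicle and 5.47, 5.55 and 5.49 under purmorphamine. The beta chain relative H2-Eb2 differed by 0.02, and neither gene passed (limma adjusted p = 0.182 and 0.929).

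H2-Oa encodes the alpha chain of H2-O, the inhibitor of H2-DM. It read 6.65, 6.75 and 6.67 under vehicle and 6.58, 6.62 and 6.83 under purmorphamine, and the treated values spanned the vehicle values. The difference was -0.02 (95% interval -0.20 to 0.17, limma adjusted p = 0.925), which bounds a change of the array value below 1.15-fold either way. H2-Ob, its beta chain partner, differed by 0.04 with a wider interval (-0.28 to 0.37, limma adjusted p = 0.885). Ciita read 6.84, 6.90 and 7.13 under vehicle and 6.85, 6.99 and 6.74 under purmorphamine. Its groups overlapped, and the difference was -0.10 (95% interval -0.33 to 0.13, limma adjusted p = 0.576). The limits of that interval are a 1.26-fold fall and a 1.10-fold rise of the array value. The Ciita difference ran from -0.17 to -0.01 over the fits on 5 arrays, and the value nearest 0 was the one without vehicle replicate 3.

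Members were also set against each other within arrays, as the log2 difference of each pair, which removes what an array shares. This comparison was added after the members' values were seen. There were 28 pairs, and in 17 of them (60.7%) the purmorphamine and vehicle arrays did not overlap, against 34.0% of all pairs of the 22180 genes. The 7 pairs with H2-DMa, all without overlap, restate its own fall, since its difference from 98.0% of all other genes separated the groups as well. That share was 78.4% for H2-DMb2 and 68.1% for H2-Ab1, so the count of pairs follows in part from single members and is given as a description. Of the 21 pairs without H2-DMa, 10 did not overlap. H2-Ab1 minus H2-DMa was -0.74, -1.27 and -0.84 in the vehicle arrays and 0.22, 0.33 and 0.27 in the purmorphamine arrays. The ratio of H2-Ab1 to H2-DMa signal thus rose 2.33-fold, by 1.22 log2 units. H2-DMa minus Ciita was 1.76, 1.70 and 1.42 under vehicle and 0.96, 0.88 and 1.05 under purmorphamine, and fell by 0.67. H2-Ab1 minus H2-Eb1 was 0.57, -0.10 and 0.22 under vehicle and 0.82, 1.01 and 0.89 under purmorphamine, a shift of 0.68. H2-DMa minus H2-DMb2 shifted less, from 2.40 ± 0.09 to 2.15 ± 0.24 (SD, n = 3). For the 17 pairs the two-sided exact permutation test gave p = 0.10, the smallest that 3 against 3 arrays allow, and 0.165 adjusted over the 28 pairs, so none could pass 0.05.

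The 7 members on chromosome 17 lie together in the class II region. There, by RefSeq position, the 15 protein-coding genes and pseudogenes from H2-Oa to H2-Ea gave 4 falls, 0 rises and 11 not past the test. Over all genes tested, 7.16% fell and 7.18% rose. The 4 falls in the region were those of H2-DMa and H2-DMb2, counted above, and of the immunoproteasome genes Psmb9 and Psmb8. Psmb9 fell by 0.52 (limma adjusted p = 0.00419) and Psmb8 by 0.44 (limma adjusted p = 0.0202). The Psmb8 call was lost in 4 of the 6 fits on 5 arrays (adjusted p of 0.0673 to 0.0725). The peptide transporter gene Tap1, which lies between Psmb9 and Psmb8, differed by 0.04 (adjusted p = 0.732). Brd2, a chromatin reader gene between H2-Oa and H2-DMa, differed by 0.01 (adjusted p = 0.889). H2-DMa and H2-DMb2, next to each other, were thus flanked by Brd2 and H2-DMb1, neither of which passed.

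**Figure D2:**
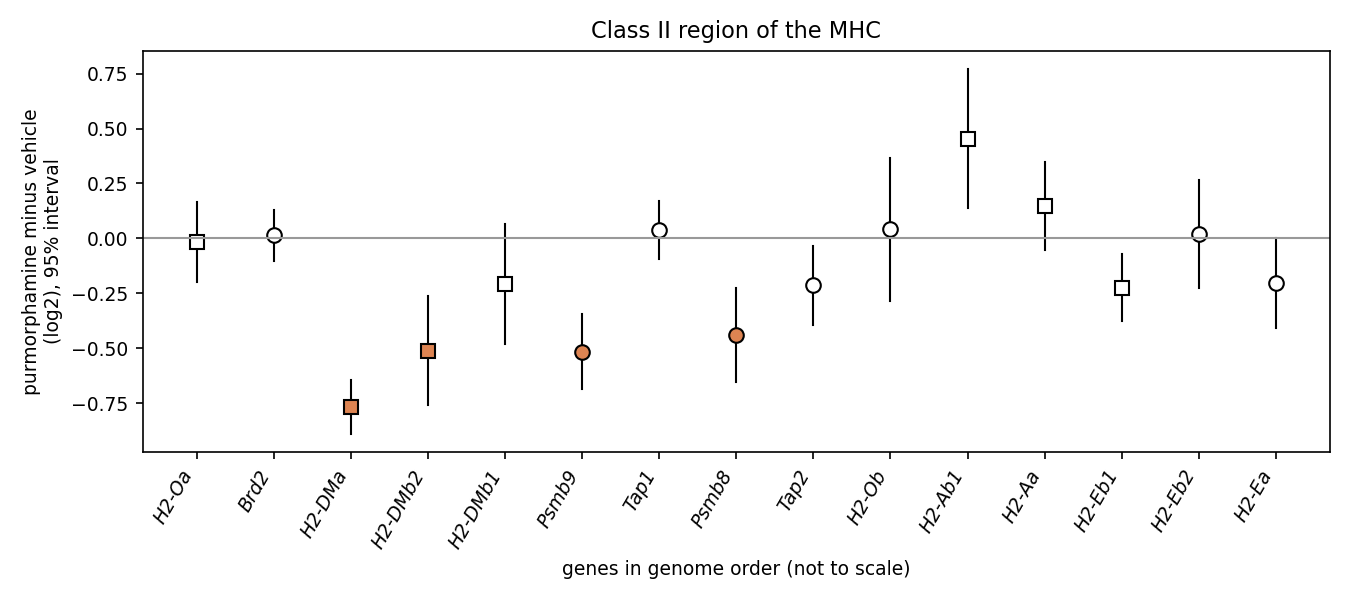
Difference between purmorphamine and vehicle (log2, limma estimate with 95% interval) for the 15 genes of the class II region in genome order, with even spacing; squares are class II members, circles are other genes and filled symbols passed the test. The 4 filled symbols are H2-DMa, H2-DMb2, Psmb9 and Psmb8, all below 0, and H2-Ab1 has the highest difference, 0.45.

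Over all genes tested, 14.3% passed, 7.18% upward and 7.16% downward. Of the factors that occupy class II promoters, 1 of 7 measured fell and 0 rose, near the share of all genes that passed. Nfya, a subunit of the Y box factor NF-Y, fell by 0.31 (limma adjusted p = 0.0196), and the other 6, among them the X box factor genes Rfx5, Rfxap and Rfxank, differed by -0.03 to 0.17. Of 12 genes that act on Ciita, 4 fell and 1 rose. The interferon regulatory factor gene Irf1 fell by 0.44 (limma adjusted p = 0.00376) and the myeloid factor genes Irf8 and Spi1 fell by 0.31 and 0.29. For Irf8 a dimmer probe set differed by 0.13, and the mean of both by -0.09 (adjusted p = 0.473). Prdm1, which encodes the Ciita repressor Blimp-1, fell by 0.29, and the interferon gamma signalling kinase gene Jak2 rose by 0.24. Of 8 interferon gamma response genes 1 fell, the GTPase gene Gbp3, by 0.35, and 0 rose. The other 7 differed by -0.46 (Igtp, limma adjusted p = 0.085) to 0.31 (Iigp1, 0.0631). The median difference over the list was -0.22, against -0.01 over all genes.

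Genes for antigen processing on the class II route fell in 2 of 9 cases and rose in 0, against 7.16% and 7.18% of all genes. Lgmn, an endosomal asparaginyl protease, fell by 0.63 (limma adjusted p = 0.000689), from 12.08 to 11.45, and Ifi30, the lysosomal thiol reductase that opens disulfide bonds of antigens, fell by 0.45 (adjusted p = 0.00317). The remaining 7, with the invariant chain protease gene Ctss among them, differed by -0.11 to 0.08. Of 7 turnover and trafficking genes 2 rose: the ubiquitin ligase gene Marchf8, by 0.24, and the tetraspanin gene Cd82, by 0.25. Of 5 genes of the Mif signal through the invariant chain, the co-receptor gene Cxcr4 rose 2.07-fold, by 1.05 (limma adjusted p = 9.57e-05). It read 8.83, 8.84 and 8.79 under vehicle and 9.87, 9.92 and 9.82 under purmorphamine, with no overlap. Mif itself (-0.02), Ddt (0.17), Cd44 (-0.11) and Cxcr2 (0.37) did not pass.

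Among all genes tested, 7.18% rose and 7.16% fell. Of 9 genes for T cell costimulation and its inhibition, Cd274, which encodes the inhibitory ligand PD-L1, rose 1.80-fold, by 0.85 (limma adjusted p = 0.000164), and 0 fell. It read 9.49, 9.48 and 9.53 under vehicle and 10.37, 10.33 and 10.36 under purmorphamine, and the other 8 genes, with the costimulators Cd80, Cd86 and Cd40 among them, differed by -0.36 to 0.24. Of 13 MHC class I presentation genes 5 fell and 1 rose. Besides Psmb9 and Psmb8, the immunoproteasome gene Psmb10 fell by 0.41, the peptide trimming gene Erap1 by 0.32 and the class I transactivator gene Nlrc5, named after its value was known, by 0.23. The class I heavy chain gene H2-K1 rose by 0.25, but its relatives are close and the probes may not tell them apart. The call of H2-K1 was lost in all 6 fits on 5 arrays (limma adjusted p of 0.0507 to 0.0932). Those of Jak2, Spi1, Marchf8 and Nlrc5 were lost in 5 (0.051 to 0.115) and those of Nfya, Gbp3 and Cd82 in 4 (0.0506 to 0.0894), and that of Prdm1 without vehicle replicate 2 (0.0511).

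**Figure D3:**
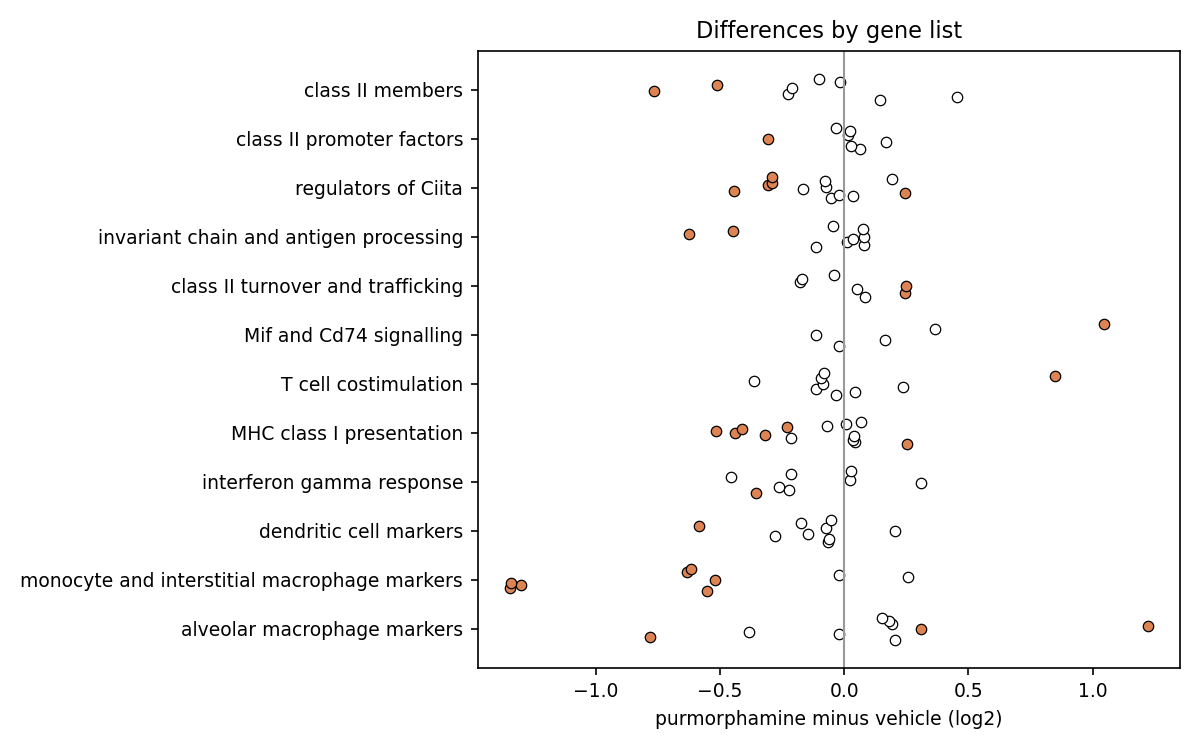
Difference between purmorphamine and vehicle (log2) for each measured gene of the class II members and 11 further lists; each point is a gene, filled where it passed the test. The filled points of the class II members are H2-DMa and H2-DMb2, Cxcr4 and Cd274 stand out to the right at 1.05 and 0.85, and 7 of 9 monocyte and interstitial macrophage markers are filled on the left.

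Markers of the cell types known for class II were measured in the same arrays, in which 7.16% of all genes fell and 7.18% rose. Of 9 monocyte and interstitial macrophage markers 7 fell and 0 rose, the complement genes C1qa, C1qc and C1qb by 1.35, 1.34 and 1.30 and the receptor genes Csf1r and Mrc1 by 0.63 and 0.62. The mean log2 level of these markers was 9.71 to 9.79 in the vehicle arrays and 9.04 to 9.09 in the purmorphamine arrays. Of the remaining 4, Cx3cr1 and Ccr2 fell by 0.55 and 0.52, while Mertk (-0.02) and Ly6c2 (0.26) did not pass. Ccr2 and Ly6c2 were dim, with vehicle means of 5.85 and 4.68, and lay under the median of all 6 arrays. Of 9 alveolar macrophage markers 2 rose, Fabp4 by 1.22 and Itgax by 0.31, and Siglecf fell by 0.78, with list means of 10.19 to 10.24 and 10.28 to 10.38. Pan-leukocyte markers gave 1 fall among 8, Coro1a by 0.71 (list means of 11.94 to 11.97 and 11.87 to 11.90). The falls of H2-DMa and H2-DMb2 had the same direction as those of 7 of 9 monocyte and interstitial macrophage markers and of 7.16% of all genes. The part of these markers in the result was not tested.

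Of 9 dendritic cell markers 5 were dim, with vehicle means under the median of every vehicle array, including Flt3, Xcr1 and Batf3. Fscn1 and Cd209a were bright, with vehicle means of 11.56 and 10.04, and Ccr7 and Zbtb46 read 6.85 and 6.55. The list means were 7.01 to 7.04 under vehicle and 6.83 to 6.94 under purmorphamine. The 1 call in this list was the fall of the actin bundler gene Fscn1 by 0.58, where 14.3% of all genes were called. B cell markers lay under that median in 5 of 6 cases, Ms4a1, Cd79a and Pax5 included, and the exception, Cd22, rose by 0.27, a call lost in 2 of the fits on 5 arrays (limma adjusted p = 0.0521 and 0.0585). T cell markers lay under it in 4 of 5, and 0 passed. Of the fibroblast markers of the labelled cell type, 8 of 10 rose and Thy1 fell by 0.32, and the list means were 10.08 to 10.18 under vehicle and 10.46 to 10.51 under purmorphamine. The growth factor receptor genes Pdgfra and Pdgfrb rose by 0.83 and 0.38, the matrix genes Col1a2 and Dcn by 0.48 and 0.46 and the transcription factor gene Tcf21 by 0.42, while Fn1 (-0.06) did not pass. Of 8 epithelial and endothelial markers 4 rose and 0 fell, with list means of 8.95 to 8.98 under vehicle and 9.12 to 9.14 under purmorphamine. The endothelial genes Vwf, Cdh5 and Pecam1 rose by 0.50, 0.34 and 0.30 and the epithelial adhesion gene Epcam by 0.50, and Sftpc (-0.25), Kdr (0.06), Cdh1 (-0.04) and Krt18 (-0.02) did not pass. The call of Cdh5 was lost in 2 of the fits on 5 arrays (limma adjusted p = 0.052 and 0.0525). The part of these other cell types in the class II values was not tested.

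The mean of the centred log2 values of H2-Aa, H2-Ab1 and H2-Eb1 over the 6 arrays was set against other genes. These chain genes did not share a pattern: H2-Ab1 and H2-Eb1 correlated at -0.832, H2-Aa and H2-Eb1 at -0.454, H2-Aa and H2-Ab1 at 0.236. Among genes with a range of at least 0.5, Xylt1 (Pearson r = 0.998), Olfml3 (0.985), Gm11944 (0.983), Creg2 (0.981) and Mrgpre (0.977) were most like the mean. H2-DMa, whose pattern was looked up later, was most like C130050O18Rik, Itgam, Trem1, Dkc1 and Tmem273 (r from 0.9988 to 0.9997), and these 5 genes fell by 0.61 to 1.70. Such values describe the 6 arrays, in which any gene with a large difference between the groups correlates with any other. Among the members, H2-DMa and H2-DMb2 correlated at 0.873, H2-DMa and H2-Eb1 at 0.868 and H2-DMa and H2-Ab1 at -0.797, while H2-DMa and Ciita correlated at 0.407.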

How the data were processed

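Expression was measured on 6 Affymetrix arrays, 3 per group, 1 per culture well. The deposited table holds the authors' log2 signal of each probe set in each array. The submitters' processing notes name oligo, RMA and limma without versions. RMA gives every array the same distribution of probe values, which hides any change shared by all transcripts, and it compresses changes of dim genes. The number of arrays limits the precision. Array medians lay between 6.34 and 6.39.

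Of 41345 probe sets, 23521 with 1 gene symbol in the platform annotation were used, and the probe set with the highest mean was kept per gene, which left 22180 genes. Symbols of 2 listed genes were updated through RefSeq. All 6 arrays entered 1 fit without a block (limma 3.58.1, lmFit then eBayes, in R 4.3.3), with two-sided tests, p-values adjusted by Benjamini-Hochberg over every gene and a threshold of 0.05. The fit was tested on simulated data. Members and the 18 gene lists were chosen with earlier results of these data known. The text names all members, up to 5 called genes per list with the smallest p, and uncalled ones where a list has 4 or fewer. It also names the 5 genes most like the mean of the chain genes. Other names were chosen after their values were seen. Alternatives covered scaling, an offset, a filter on dim genes, probe set choice, variance model, array weights, a replicate block, each array left out, and thresholds. Permutation tests used SciPy 1.17.1 in Python 3.11.15, and plots matplotlib 3.10.9.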

Additional observations from a re-analysis of the deposited data

How the results depend on the processing

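The fall of H2-DMa was past the threshold in all 15 alternative fits, with differences of -0.79 to -0.66. The count of class II members called, 2 as reported, was 4 with the linear offset of 50, 4 with eBayes set to trend and robust, 4 at an adjusted p under 0.1, where H2-Ab1 and H2-Eb1 joined, and 1 with a fold of at least 1.5. It ranged from 1 to 3 with each array left out. The count of all genes called, 3181, was 525 with a fold of at least 1.5 and 1967 to 2374 with each array left out. In the fit without the dimmest genes, H2-Aa, H2-DMb1 and H2-DMb2 were not tested. The replicate block left 2 members and 2432 genes called. Of the 45 called genes of the other lists it lost 7: Cdh5 (adjusted p = 0.052), Cd82 (0.0521), Marchf8 (0.0557), Psmb8 (0.0647), Jak2 (0.0673), H2-K1 (0.0719) and Nlrc5 (0.0847), which leaves 0 turnover and trafficking genes. It gained Cxcr2 (0.0292) and Igtp (0.0171). Deviations from the group means of same-numbered arrays correlated at 0.106, 0.024 and 0.103 across genes, and each vehicle array correlated best with its own number. These values do not decide whether the numbers are pairs. The main fit did not take them as pairs, and the fit with the block is given beside it. Small differences of genes not past the test turned sign, and the cause was not tested: over the fits on 5 arrays H2-Oa ran from -0.092 to 0.03, H2-Ob from -0.065 to 0.149, H2-Eb2 from -0.052 to 0.106, Mif from -0.054 to 0.009 and Krt18 from -0.042 to 9.9e-05. Averaging its probe sets gave Cdh1 0.00018. The number of arrays and the dimness of H2-Aa, H2-DMb1 and H2-DMb2 limit what these arrays can show.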
